A study of Mus musculus with 2 samples.

Results

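The BCL2 family decides whether a cell keeps its outer mitochondrial membrane intact, and 10 of its genes are described here in mouse blood-forming cells that carry either of 2 forms of the transcription factor EVI1. The genes were chosen by name as survival and death genes of the family and found by Ensembl ID among the 55487 gene IDs of the count table. They are the pro-survival genes Bcl2, Bcl2l1 and Mcl1, the effector genes Bax and Bak1, and the BH3-only genes Bid, Bcl2l11, Bbc3, Pmaip1 and Bmf. All 10 were measured and passed the filter of at least 1 scaled CPM in a library, where scaled CPM is a gene's read count relative to the size of its library after scaling.

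RNA was sequenced from 2 cultures of C57BL/6 bone marrow cells. One was transduced with the retroviral vector pMYs-IG_3xHA-EVI1+18, which by the series title stands for a product of aberrant EVI1 splicing, and the other with pMYs-IG_3xHA-EVI1-WT, the wild-type form. Both cultures were lineage-negative marrow from femora, tibiae and pelvis, and both overexpressed EVI1 from a retrovirus, so neither is a culture without a vector. Cells were sorted for green fluorescence 3 days after infection, and 10000 of them were grown in the colony medium MethoCult M3434 for about 3 weeks, so the RNA comes from a mixture of colonies and not from the sorted cells. Each form is represented by 1 library. No difference below has a replicate check, the 95% intervals cover counting error alone, and they compare the libraries, not the vectors.

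The EVI1+18 library held 20981903 counts and the EVI1-WT library 20480447. Mecom, the gene that encodes EVI1, had 4481 counts in EVI1+18 and 3612 in EVI1-WT, a ratio of 1.16 with an interval of 1.11 to 1.21. These counts cannot be split into vector and cellular transcripts. The 6 pan-leukocyte genes checked, Ptprc among them, were expressed in both libraries, with a summed level of 2857 scaled CPM in EVI1+18 and 3950 in EVI1-WT. Of 10 lymphoid markers, 2 passed the filter and neither was called at 1.5-fold. These were the B cell receptor gene Cd79b, with 45 counts in EVI1+18 and 65 in EVI1-WT, and the interleukin 7 receptor gene Il7r, with 640 counts in EVI1+18 and 608 in EVI1-WT. The other 8 had at most 4 counts in EVI1+18 and 3 in EVI1-WT. Ms4a1, Cd4 and Cd8a were among those with 0 counts in both, which allows up to 0.140 scaled CPM in EVI1+18 and 0.150 in EVI1-WT.

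Members of the family carry out opposing roles at the mitochondrion. Pro-survival proteins hold BAX and BAK in check, BH3-only proteins are switched on by stress or by loss of growth factors and either block the pro-survival proteins or activate BAX and BAK, and the activated effectors open the membrane and release cytochrome c, which starts the caspases. In blood cells the balance is set largely by cytokines: interleukin 3, stem cell factor and erythropoietin keep MCL1 and BCL-XL up and BIM down. Bcl2l1, which encodes BCL-XL, has been reported as a target of EVI1.

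The 3 members called at 1.5-fold, Bcl2l11, Pmaip1 and Bmf, are BH3-only genes and were all lower in EVI1+18. The call at 2-fold asked that the entire 95% interval of the ratio be above 2 or below 1/2, and the call at 1.5-fold was made in the same way. Bcl2l11 was at least 2-fold lower in EVI1+18, and no member was at least 2-fold higher. At 1.5-fold, 3 members were lower and 0 higher. Over all 13183 genes tested, 5.10% were called lower at 2-fold and 5.05% higher. The shares at 1.5-fold were 9.79% lower and 8.29% higher. The 10 members had a median log2 ratio of -0.14, beside 0.01 over all tested genes, and the median size of the log2 ratio, whatever its sign, was 0.50 for the members and 0.31 for all tested genes. Intervals that excluded equality were found for 9 of the 10 members. This was common at this depth, since 66.2% of all tested genes had such an interval.

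Among the pro-survival genes, the level of Mcl1 was nearly equal in the 2 libraries, Bcl2l1 was higher in EVI1+18 and Bcl2 lower. None of the 3 was called at 1.5-fold.

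Bcl2l1 (ENSMUSG00000007659; GRCm38 chromosome 2, 152780668 to 152831728, minus strand) reached 2244 counts, or 104.6 scaled CPM, in EVI1+18, against 1666 counts, or 83.2 scaled CPM, in EVI1-WT. The ratio was 1.26 with an interval of 1.18 to 1.34. BCL-XL is the family member on which late red-cell precursors and platelets depend, and the EVI1+18 library was also the one with the higher red-cell markers. Of 20 erythroid marker genes, 17 were called higher at 2-fold and 0 lower, with a summed level of 13955 scaled CPM in EVI1+18 against 1801 in EVI1-WT. Most of both sums came from the globin genes Hba-a1, Hba-a2, Hbb-bs and Hbb-bt. Alas2 and Slc4a1 were thinly counted, with 27 and 146 counts in EVI1+18 and 9 and 30 in EVI1-WT. The part of the erythroid markers in the Bcl2l1 ratio was not tested. In bulk RNA, a change in the number of cells of a type and a change in RNA per cell cannot be told apart. Counts per gene also do not separate the long, protective splice form of Bcl2l1 from the short form, which promotes death.

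Bcl2 (ENSMUSG00000057329; chromosome 1, 106538178 to 106714274, minus strand) is the founding member and is used above all by lymphocytes and early progenitors. It had 1331 counts, or 62.0 scaled CPM, in EVI1+18 and 1743 counts, or 87.0 scaled CPM, in EVI1-WT. The ratio was 0.713, with an interval of 0.663 to 0.766 that reached across the 1.5-fold line. The 2 genes thus differed in opposite directions. Per kilobase of exon, the level of Bcl2l1 was 3.37 times that of Bcl2 in EVI1+18 and 1.91 times in EVI1-WT, and the ratio of these ratios was 1.76 (1.60 to 1.94), a quantity that does not depend on library scaling.

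Mcl1 (ENSMUSG00000038612; chromosome 3, 95658788 to 95663176, plus strand) encodes a short-lived protein that stem cells and granulocytes need to survive. It had 6983 counts in EVI1+18 and 6271 in EVI1-WT. The level was 325 scaled CPM in EVI1+18 and 313 in EVI1-WT, and the ratio was 1.04 with an interval of 1.004 to 1.08.

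**Figure D1:**
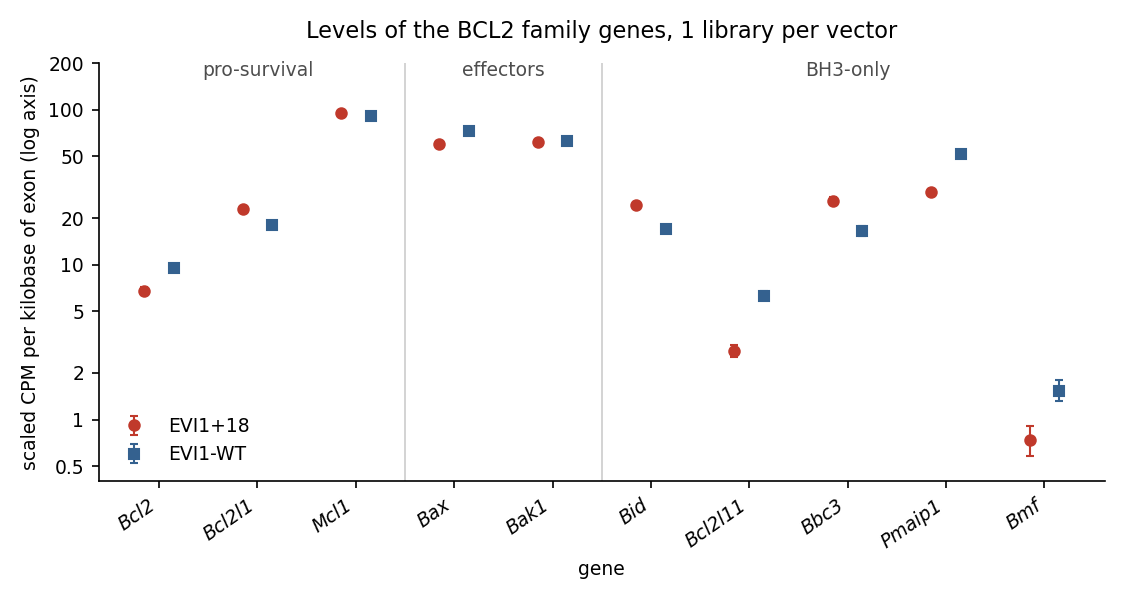
Level of each of the 10 genes in scaled CPM per kilobase of exon on a log axis, with EVI1+18 as red circles and EVI1-WT as blue squares, 1 library each. Bars are 95% exact Poisson intervals of the count and are smaller than the symbol for most genes. By these exon-union lengths Mcl1 is the highest gene in both libraries and Bmf the lowest, and the largest gaps are at Bcl2l11, Bmf and Pmaip1.

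Neither of the effectors, each of which can form the pore, was called at 1.5-fold. Bax (ENSMUSG00000003873; chromosome 7, 45461697 to 45466898, minus strand) was counted 2042 times in EVI1+18 and 2300 in EVI1-WT, a ratio of 0.829 (0.780 to 0.880). Bak1 (ENSMUSG00000057789; chromosome 17, 27019810 to 27029009, minus strand) was counted 3225 times in EVI1+18 and 3050 in EVI1-WT. Its ratio of 0.987 had an interval of 0.939 to 1.04, so the libraries did not differ beyond counting error. The counts of the neighbouring gene Ggnbp1, whose exons overlap those of Bak1 on the opposite strand, were at most 18 in EVI1+18 and 23 in EVI1-WT.

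The 5 BH3-only genes split in direction. Bbc3 and Bid were higher in EVI1+18, and Bcl2l11, Pmaip1 and Bmf were lower. The log2 ratios ran from -1.19 for Bcl2l11 to 0.64 for Bbc3. Most of the mast cell, basophil and eosinophil markers tested were also lower in EVI1+18. Of 12 tested mast cell and basophil markers, 9 were called lower at 2-fold and 2 higher. The 2 were Prss34 and Kit, with ratios of 4.64 and 3.76. The list of 14 had a summed level of 1986 scaled CPM in EVI1+18 and 12693 in EVI1-WT, of which Gzmb gave 1520 and 7811. Tpsab1, a mast cell tryptase gene on that list, had 0 counts in both libraries. Of 5 tested eosinophil markers, 4 were called lower and 1, Siglecf, higher, with a ratio of 4.23. The list of 8 summed to 173 scaled CPM in EVI1+18 and 855 in EVI1-WT. Ear1, an eosinophil ribonuclease gene on it, had 0 counts in EVI1+18 and 1 in EVI1-WT. Their part in the BH3-only ratios was not tested.

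Bcl2l11 (ENSMUSG00000027381; chromosome 2, 128126038 to 128162547, plus strand) encodes BIM, which cells make when growth factors are withdrawn and which is needed for the death of cytokine-starved myeloid cells. It had 477 counts in EVI1+18 and 1017 in EVI1-WT. The level was 22.2 scaled CPM in EVI1+18 and 50.8 in EVI1-WT, a 2.28-fold lower level with an interval of 2.05 to 2.55. Among all tested genes, 6.33% had a lower ratio. With scaling by total counts the ratio was 0.458 and its interval, 0.410 to 0.511, reached across 1/2, so the 2-fold call depends on the scaling. BIM is made in several splice forms, which gene counts do not separate.

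Pmaip1 (ENSMUSG00000024521; chromosome 18, 66458533 to 66465565, plus strand) encodes NOXA, a p53 target that binds MCL1 and A1 and speeds the breakdown of MCL1. It had 1735 counts in EVI1+18 and 2850 in EVI1-WT. The level was 80.9 scaled CPM in EVI1+18 and 142 in EVI1-WT, a 1.76-fold lower level (1.66 to 1.87). The per-length ratio of Mcl1 to Pmaip1 was 3.22 in EVI1+18 and 1.76 in EVI1-WT, and the ratio of these was 1.83 (1.71 to 1.96).

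Bmf (ENSMUSG00000040093; chromosome 2, 118528757 to 118549687, minus strand) encodes a BH3-only protein that is held at the cytoskeleton and released by loss of attachment and other stresses. It had 83 counts in EVI1+18 and 162 in EVI1-WT, which is 3.87 scaled CPM in EVI1+18 and 8.09 in EVI1-WT. The level was 2.09-fold lower in EVI1+18, with an interval of 1.60 to 2.76. It is the most thinly counted member, and its interval is the widest of the 10 relative to its ratio.

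Bbc3 (ENSMUSG00000002083; chromosome 7, 16308393 to 16318205, plus strand) encodes PUMA, which p53 induces after DNA damage and FOXO factors induce after cytokine loss. It had 1175 counts in EVI1+18 and 704 in EVI1-WT. The level was 54.8 scaled CPM in EVI1+18 and 35.2 in EVI1-WT, and the ratio of 1.56 had an interval of 1.42 to 1.71, which includes 1.5. Among all tested genes, 87.5% had a lower ratio.

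Bid (ENSMUSG00000004446; chromosome 6, 120891930 to 120916853, minus strand) links death receptors to the mitochondrion, since its protein is cut into an active form by caspase 8 or by granzyme B. It had 1852 counts in EVI1+18 and 1214 in EVI1-WT, a ratio of 1.42 (1.32 to 1.53). Exons of Bcl2l13 overlap 17.7% of its exon bases on the opposite strand, and the strand setting of the counting is not given in the sources used here. Bcl2l13 had 2215 counts in EVI1+18 and 1765 in EVI1-WT, a ratio of 1.17, so Bid carries this uncertainty.

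BIM and PUMA share an upstream class of regulators, the FOXO factors. Transcripts of Bcl2l11 and Bbc3 stood on opposite sides of equality, and the part of FOXO factors in this was not tested. The per-length ratio of Bbc3 to Bcl2l11 was 9.31 in EVI1+18 and 2.62 in EVI1-WT, and the ratio of these ratios was 3.56 (3.08 to 4.12). The corresponding value for Bid over Pmaip1 was 2.51 (2.28 to 2.76).

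Upstream sequences are shown for these 2 genes, whose ratios were the lowest and the highest of the 10, and for Bcl2l1, the reported EVI1 target. Each run is the 250 bases before an annotated RefSeq start on GRCm38.p6, written 5′ to 3′ on the gene's strand. For Bcl2l11 and Bcl2l1 the outermost start was used. Bbc3 has several annotated starts, and the one shown was chosen because its run holds the FOXO letters. Capitals mark the FOXO letters GTAAACA or their reverse complement. The runs lie at chr2:128125788-128126037 (plus strand) for Bcl2l11, chr7:16310011-16310260 (plus strand) for Bbc3 and chr2:152831729-152831978 (minus strand) for Bcl2l1.
Bcl2l11: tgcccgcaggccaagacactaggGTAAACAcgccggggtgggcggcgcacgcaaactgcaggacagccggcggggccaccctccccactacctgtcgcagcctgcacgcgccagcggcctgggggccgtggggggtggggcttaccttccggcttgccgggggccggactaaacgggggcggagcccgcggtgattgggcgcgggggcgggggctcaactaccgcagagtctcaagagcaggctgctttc
Bbc3: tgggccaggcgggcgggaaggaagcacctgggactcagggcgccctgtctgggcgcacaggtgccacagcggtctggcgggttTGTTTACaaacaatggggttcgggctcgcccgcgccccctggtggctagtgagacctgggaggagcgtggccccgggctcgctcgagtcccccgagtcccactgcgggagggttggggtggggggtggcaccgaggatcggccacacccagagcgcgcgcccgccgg
Bcl2l1: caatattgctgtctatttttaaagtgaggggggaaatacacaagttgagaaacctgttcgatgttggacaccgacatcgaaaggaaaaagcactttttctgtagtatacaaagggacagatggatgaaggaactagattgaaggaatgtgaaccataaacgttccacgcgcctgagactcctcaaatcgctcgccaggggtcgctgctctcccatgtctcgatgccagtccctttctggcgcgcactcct
Both strands of 300-base windows, from 250 bases before each start to 50 after it, were searched for 7 motifs. RefSeq starts gave 16 such windows for 9 of the members and none for Pmaip1, which was not searched. In the Bak1 window and the Bcl2l1 windows other than the outermost, all 250 upstream bases lie in annotated exons. The FOXO letters occurred in 2 of the 16 windows, at position -227 from the start in Bcl2l11 and -167 in Bbc3. They occurred in 3.65% of all 32851 windows. The other windows of Bcl2l11 and Bbc3 did not hold them. The letters of the EVI1 finger domains, GACAAGATA and GAAGATGAG, were in 0 member windows and in 0.119% and 0.399% of all windows. GATAAG for GATA factors, TTCNNNGAA for STAT factors and TGATGCAA for CHOP with ATF4 were also in 0 member windows, beside 7.44%, 8.30% and 0.895% of all windows. The E-box letters CACGTG were in 1 of the Bbc3 windows and in that of Bax, beside 7.15% of all windows. A match is a run of letters and not a shown binding site, and a window without one says nothing of the factor. The 2 windows with the FOXO letters belong to a gene that was lower and to one that was higher, and the part of FOXO factors was not tested.

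**Figure D2:**
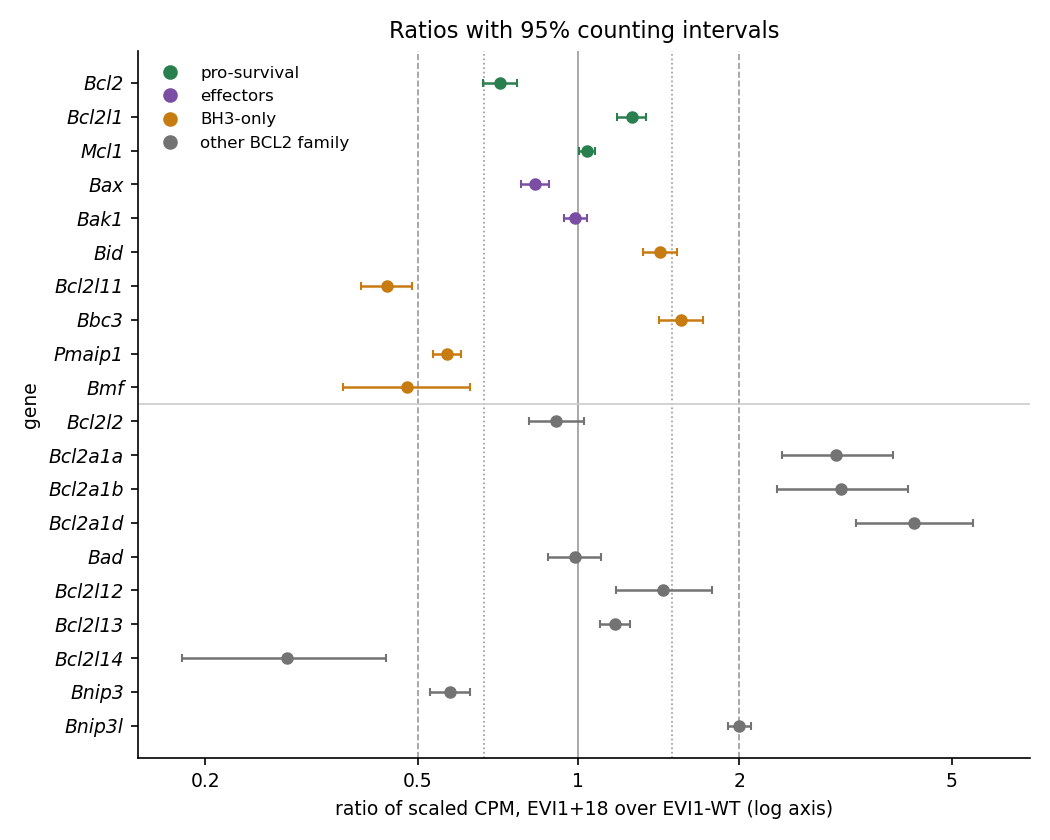
Ratio of scaled CPM, EVI1+18 over EVI1-WT, on a log axis for the 10 genes (above the grey line) and the 10 other BCL2 family genes that passed the filter. Points are the ratios, bars the 95% exact counting intervals, dotted lines 1.5-fold and dashed lines 2-fold. Only Bcl2l11 among the 10 has its whole interval beyond a dashed line, whereas the 3 Bcl2a1 copies lie beyond 2 and Bcl2l14 below 1/2.

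The order of the levels depends in part on the gene length used. With the union of annotated exons as the length, Mcl1 was highest, at 95.2 scaled CPM per kilobase in EVI1+18 and 91.6 in EVI1-WT, above 95.9% of tested genes in EVI1+18 and 95.8% in EVI1-WT. Bak1 and Bax followed in EVI1+18, at 62.4 and 60.4, where they did not differ beyond counting error. In EVI1-WT Bax stood above Bak1, at 72.9 and 63.3. Pmaip1 was in the fourth place in both, at 29.6 in EVI1+18 and 52.1 in EVI1-WT. Bbc3, Bid and Bcl2l1 came next as a close group, at 25.8, 24.3 and 22.8 in EVI1+18 and at 16.5, 17.1 and 18.1 in EVI1-WT. In EVI1-WT no neighbours within that group differed beyond counting error, and in EVI1+18 Bbc3 and Bid did not, while Bid was just above Bcl2l1 (ratio 1.07, 1.002 to 1.13). The lowest 3 were Bcl2, at 6.77 in EVI1+18 and 9.504 in EVI1-WT, Bcl2l11, at 2.77 in EVI1+18 and 6.32 in EVI1-WT, and Bmf, at 0.736 in EVI1+18 and 1.54 in EVI1-WT. The union understates a gene that uses a short form in these cells. With the longest transcript as the length, Bmf, Bcl2l11 and Bcl2 were again the lowest 3, but other places changed. Bax then held 21.9% of the per-length sum of the 10 genes in EVI1+18 and 25.3% in EVI1-WT, beside 24.1% in EVI1+18 and 22.2% in EVI1-WT for Mcl1, so Bax was above Mcl1 in EVI1-WT. Bak1 held 15.9% in EVI1+18 and 15.5% in EVI1-WT, below Bax in both, so the near-equality of the effectors in EVI1+18 rests on the exon-union length. Pmaip1, with 7.51% in EVI1+18, came after Bcl2l1 (10.3%), Bid (9.05%) and Bbc3 (7.64%) there, and with 12.6% in EVI1-WT it kept the fourth place. Bcl2l1 was then above Bid in both libraries.

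With exon-union lengths, the sum over the 10 genes was 331 scaled CPM per kilobase in EVI1+18 and 349 in EVI1-WT. Pro-survival genes made up 37.7% of it in EVI1+18 and 34.2% in EVI1-WT. Effectors made up 37.1% in EVI1+18 and 39.0% in EVI1-WT, and BH3-only genes 25.1% in EVI1+18 and 26.8% in EVI1-WT. The small shift of the BH3-only total hid larger shifts inside it, because Pmaip1 held 8.95% of the sum in EVI1+18 and 14.9% in EVI1-WT, while Bbc3 held 7.79% in EVI1+18 and 4.74% in EVI1-WT. Bid held 7.35% in EVI1+18 and 4.89% in EVI1-WT. The pro-survival sum was 1.5 times the BH3-only sum in EVI1+18 and 1.27 times in EVI1-WT. These are sums of transcripts and not of proteins, and MCL1, NOXA and BIM are all controlled strongly after transcription.

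**Figure D3:**
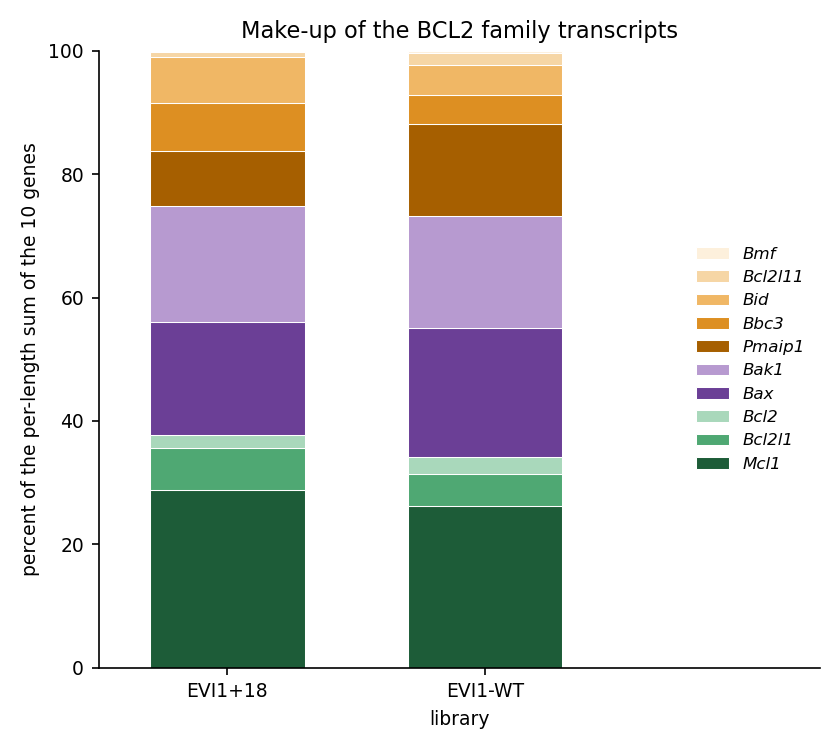
Share of each gene in the per-length sum of the 10 genes, in percent, with EVI1+18 on the left and EVI1-WT on the right. Greens are pro-survival genes, purples effectors and oranges BH3-only genes. The purple blocks are close in height, and the dark orange block of Pmaip1 is smaller in EVI1+18 (8.95%) than in EVI1-WT (14.9%).

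Other members of the family included some larger ratios than the 10. Of 15 further BCL2 family genes, 10 passed the filter, and at 2-fold 3 of these were called higher and 1 lower. The 3 are the tandem copies Bcl2a1a, Bcl2a1b and Bcl2a1d, which encode the pro-survival protein A1 of granulocytes, macrophages and mast cells. Between 69.0% and 79.5% of their 50-base words occur in other genes, chiefly in each other, so the 3 calls are not independent. Their sum depends less on how reads were split between copies. Reads left out because they match several copies would be missing from it too, and their treatment is not given. Gm29094 also overlaps 49.1% of the exon bases of Bcl2a1b on the same strand. The sum was 885 counts in EVI1+18 and 239 in EVI1-WT, with 41.2 scaled CPM in EVI1+18 and 11.9 in EVI1-WT, a ratio of 3.46 (2.99 to 4.004). A1 and MCL1 are the pro-survival proteins that NOXA binds, and in EVI1+18 the A1 transcripts were higher while Pmaip1 was lower. The marker lists of cells that can express A1 did not move together. Monocyte and macrophage markers summed to 4264 scaled CPM in EVI1+18 and 2310 in EVI1-WT, with 5 of 11 tested called higher at 2-fold and 2 lower. Most of the EVI1+18 sum came from Lyz2, at 2397 scaled CPM in EVI1+18 and 967 in EVI1-WT, and Gpnmb, at 1214 and 242. The 2 called lower were Ly6c2 and Adgre1, with ratios of 0.219 and 0.384. Of 14 tested neutrophil markers, 7 were called lower and 0 higher, and the list summed to 2158 scaled CPM in EVI1+18 and 5259 in EVI1-WT. At 1.5-fold 8 of them were called lower and 2, Prtn3 and Mmp9, higher. The mast cell and basophil list given above had a lower sum in EVI1+18. The part of these lists in the A1 ratio was not tested.

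The mitophagy receptors of the family went in opposite directions. Bnip3l, which encodes NIX and clears mitochondria from maturing red cells, had 4977 counts in EVI1+18 and 2323 in EVI1-WT. Its ratio of 1.9998 had an interval of 1.90 to 2.10, short of the 2-fold rule and past 1.5-fold. Bnip3, a hypoxia-induced relative, had 860 counts in EVI1+18 and 1394 in EVI1-WT, a 1.74-fold lower level (1.59 to 1.89). Of its 50-base words 47.2% occur in other genes, and of those of Bnip3l 20.8%, mostly in a pseudogene. The erythroid markers that moved with Bnip3l are given above, and their part in it was not tested. Bcl2l14 had 29 counts in EVI1+18 and 95 in EVI1-WT and was 3.51-fold lower (2.29 to 5.52). Bcl2l2, which encodes BCL-W, and the BH3-only gene Bad had ratios of 0.910 (0.809 to 1.02) and 0.984 (0.878 to 1.10), both within counting error. Bcl2l12 had a ratio of 1.44 (1.17 to 1.78). Bcl2l10 and Hrk had 0 counts in both libraries, and Bok, Bik and Bcl2l15 had at most 8 counts in EVI1+18 and 5 in EVI1-WT.

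Genes that act on the family from outside were mostly not called at 1.5-fold. This also held for all tested genes, of which 8.29% were called higher and 9.79% lower. Among 15 cytokine signalling genes, given below, 3 were called higher at 1.5-fold and 4 lower. Of 13 genes of the death receptor arm upstream of Bid, at 2-fold 1 was called lower and 0 higher. The median log2 ratio was -0.23. The exception was Gzmb, the granzyme that can cut BID, at 1520 scaled CPM in EVI1+18 and 7811 in EVI1-WT, a 5.14-fold lower level (5.08 to 5.20). Gzmb is also a product of mouse mast cells and basophils. It is itself on the marker list of those cells given above, whose part in the Gzmb ratio was not tested. The death receptor gene Tnfrsf1a had a ratio of 1.90 (1.72 to 2.10), and Tnfrsf10b, the mouse TRAIL receptor, was 1.64-fold lower (1.34 to 1.99).

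The list of transcription factors that act on BH3-only genes also holds Mdm2, whose protein acts on p53 and is not itself such a factor. Among its 12 tested genes, at 1.5-fold 3 were called higher and 0 lower. The median log2 ratio was 0.13. Jun, which can induce Bcl2l11 in neurons, was the 1 gene at least 2-fold higher, with a ratio of 3.28 (3.03 to 3.55). The stress factors Ddit3, which encodes CHOP, and Atf4 had ratios of 1.801 (1.60 to 2.03) and 1.62 (1.57 to 1.66). Both proteins have been linked to induction of BH3-only genes in stressed cells. Ratios for the factors best known to act on Bbc3, Pmaip1 and Bcl2l11 differed from one another. Trp53 had 4484 counts in EVI1+18 and 2874 in EVI1-WT, a ratio of 1.46 (1.39 to 1.53). Foxo3 had 1823 counts in EVI1+18 and 2198 in EVI1-WT, a ratio of 0.774 (0.727 to 0.824). The other FOXO genes on the list did not share 1 direction. Foxo1 had 194 counts in EVI1+18 and 96 in EVI1-WT, a ratio of 1.89 (1.47 to 2.43), and Foxo4 had 458 counts in EVI1+18 and 490 in EVI1-WT, a ratio of 0.872 (0.766 to 0.993). Trp53 and the FOXO genes were singled out after their values were seen, and transcript levels of these factors do not give their activity.

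Cytokine signalling genes were spread widely. At 2-fold, 3 of 15 were called higher and 3 lower. The median log2 ratio was 0.17. The erythropoietin receptor Epor, whose signal raises BCL-XL in red-cell precursors, had 705 counts in EVI1+18 and 40 in EVI1-WT, a ratio of 16.5 (11.96 to 23.2). Il6st, the shared receptor chain for interleukin 6, had 231 counts in EVI1+18 and 21 in EVI1-WT, a ratio of 10.3 (6.56 to 16.9). Csf2rb2 encodes a receptor chain through which mouse interleukin 3 signals, and as a close paralog of Csf2rb it may share reads with it. The level of Csf2rb2 was 466 scaled CPM in EVI1+18 and 2087 in EVI1-WT. This is a 4.48-fold lower level (4.38 to 4.58). Epor is itself one of the 20 erythroid markers, and the gene lists of different blood lineages moved with these receptors. Their part was not tested.

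Downstream of the mitochondrion the ratios were small. Of 18 genes for caspase activation and its inhibitors, 0 were called at 2-fold in either direction, and at 1.5-fold 1 was called higher and 1 lower. The gene of the protease Htra2, which is released from mitochondria and removes caspase inhibitors, had a ratio of 1.76 (1.61 to 1.93). The executioner caspase gene Casp6 had 381 counts in EVI1+18 and 711 in EVI1-WT and was 1.999-fold lower (1.76 to 2.27). Apaf1, which encodes the scaffold that cytochrome c assembles into the apoptosome, was 1.53-fold lower (1.44 to 1.63), short of the 1.5-fold rule. Of 6 tested genes for MCL1 turnover, 0 were called at 1.5-fold, and the ubiquitin ligase gene Huwe1 was 1.18-fold lower (1.14 to 1.22). The ligase gene Fbxw7 was 1.53-fold lower, with an interval of 1.36 to 1.71 that crosses 1.5. Of 9 genes for mitochondrial partners of the family, 1 was called at 1.5-fold. This was the channel gene Vdac3, with a ratio of 1.66 (1.58 to 1.75).

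**Figure D4:**
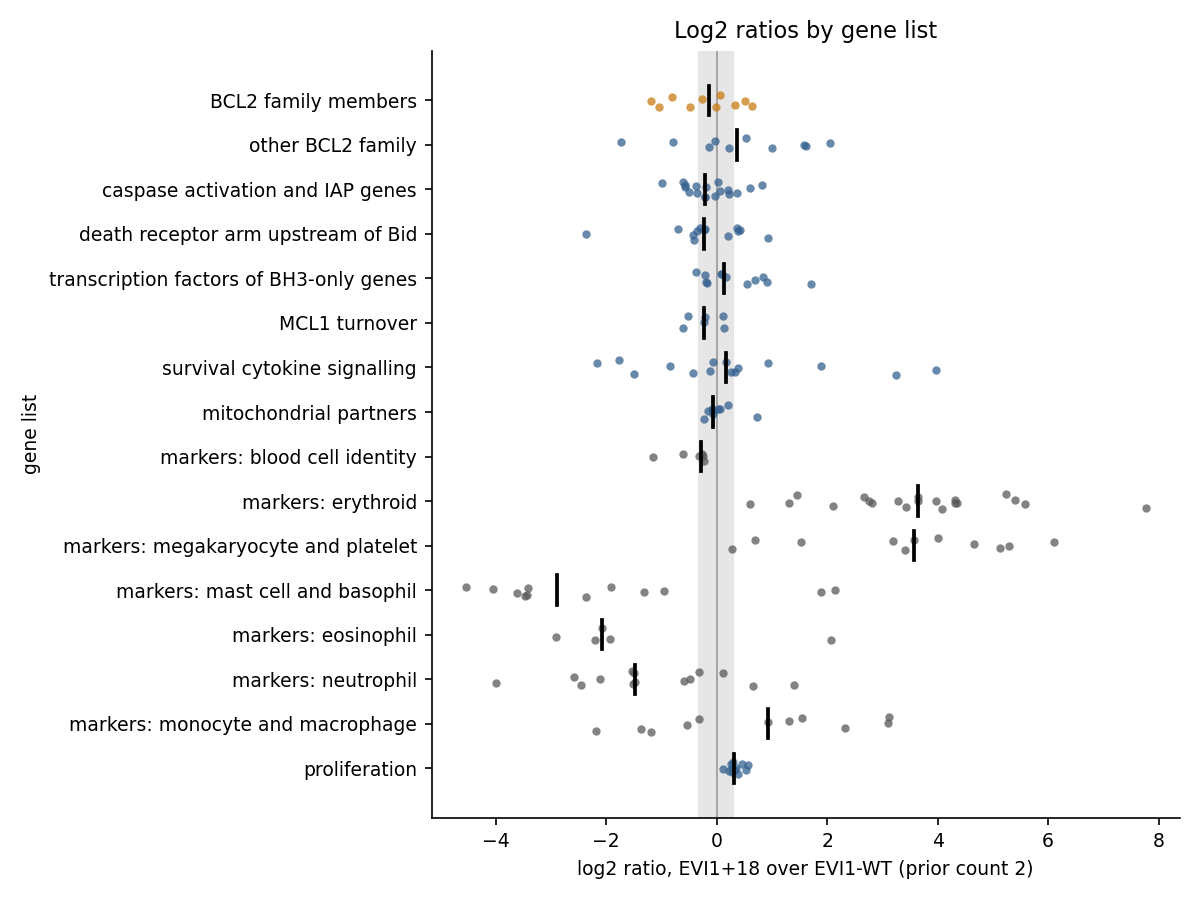
Log2 ratio of EVI1+18 over EVI1-WT for the tested genes of each list, with a black tick at each list's median and the middle 50% of all tested genes in grey. Orange points are the 10 genes, blue points the pathway and proliferation lists and grey points the cell type markers. The 10 genes run from -1.19 to 0.64, between the medians of the erythroid markers (3.64) and of the mast cell and basophil markers (-2.89).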

How the data were processed

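The authors deposited raw read counts per Ensembl gene, with no normalization and 1 column per library. The submitters' processing notes name GRCm38 as the build and list HISAT2 2.2.1, SAMtools, Subread, featureCounts and edgeR as tools. How they were ordered and set, how strand was treated and what was done with multi-mapping reads is not given in the sources used here. Libraries were assigned by the vector in their labels, and 0 columns were left unmapped.

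Counts were scaled with edgeR 4.0.16 (TMM, R 4.3.3) on the whole table. Ratios carry exact Clopper-Pearson intervals (scipy 1.17.1), and log2 ratios a prior count of 2. With 1 library per group edgeR's quasi-likelihood test has no residual degrees of freedom, and no p-value was computed. Of 55487 gene IDs, 55141 matched GENCODE M21, which gave symbols, coordinates and exon lengths. A count of 0 allows up to 3 counts. The libraries have no stated molecular identifiers, so reads may be copies of one molecule, and intervals and floors cover counting error only. Ratios of ratios were computed for 8 pairs of members, of which 4 are given, with exact conditional intervals. The members and lists were chosen with earlier results of these data known. Named are all members, the tested genes of the wider family and up to 3 genes of each other list with the largest conservative fold, some of which are not given.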

Additional observations from a re-analysis of the deposited data

How the results depend on the processing

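With 1 library per vector no replicate could be left out, and no test could be run under any setting. No paired analysis was possible because each vector has 1 library and no test was run. Members and all tested genes were recomputed with scaling by total counts, DESeq2 size factors, upper-quartile scaling and globin genes left out, and the counts and the median also without a filter or with a filter of 5 CPM. Under total counts 0 members were at least 2-fold lower, since the interval of Bcl2l11 then crosses 1/2, and the ratio of Mcl1 was 1.09. Under the other scalings 1 member was at least 2-fold lower, and under all scalings 3 members were at least 1.5-fold lower and 0 higher. The filters could not change the member counts or the member median, since every member passes 5 CPM in at least 1 library. The ratio of Bak1 was 0.987 with TMM, 1.004 with DESeq2 size factors and 1.03 with total counts, so its direction depends on the scaling. With the 5 CPM filter, which tests fewer genes, 431 of all tested genes were at least 2-fold higher, against 666 at 1 CPM. With the longest transcript as gene length, pro-survival genes made up 36.6% of the per-length sum in EVI1+18 and 32.97% in EVI1-WT, and effectors 40.7% in EVI1-WT, and the order of single genes changed as given with the levels. The other alternatives, 119 of 125, left the values within counting error or within 1.5 times. Some of these could not have come out otherwise and are no check. They are the member results under the filters, and the per-length shares under each scaling, where library size cancels. Depth limits Bmf most, and differences between cultures of the same vector cannot be measured here.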

Other observations

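All 12 cell division genes had ratios above 1, from 1.08 for Rrm2 to 1.48 for Ccna2, with intervals that excluded equality. Such an interval, in either direction, was found for 66.2% of all tested genes. Of the 12, 0 were called at 1.5-fold, and their median log2 ratio was 0.31. The cyclin genes Ccna2 and Ccnb2 had ratios of 1.48 (1.41 to 1.56) and 1.44 (1.35 to 1.53). Stromal and endothelial markers were nearly absent apart from Pecam1, which blood cells also express, and Pecam1 was 1.59-fold lower (1.54 to 1.65). Il7r, whose signal sustains Bcl2 in lymphoid cells, had a ratio of 0.983 (0.878 to 1.10). Megakaryocyte and platelet markers, cells that rely on BCL-XL, summed to 2028 scaled CPM in EVI1+18 and 744 in EVI1-WT, with 9 of 11 tested at least 2-fold higher and 0 lower.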
